A study of Mus musculus with 8 samples.

Results

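A set of 10 genes of bone morphogenetic protein (BMP) signalling were followed through the peak lists: 6 ligand genes (Bmp2, Bmp4, Bmp5, Bmp6, Bmp7 and Bmp8a) and 4 genes of secreted antagonists (Nog, Chrd, Grem1 and Fst), out of 21883 protein-coding genes. A peak was counted at a gene when it lay over the gene or within 5 kb of either of its annotated ends. The lists came from chromatin immunoprecipitation and sequencing (ChIP-seq) with an antibody to histone H3 trimethylated at lysine 27 (H3K27me3) in mouse chondrocytes from cartilage, grown in DMEM with serum. There were 4 genotypes, labelled Ezh2-Cko, Utx-cKO, Jmjd3-Cko and Wild type, with 1 ChIP library and 1 input library each. Ezh2, Utx (also Kdm6a) or Jmjd3 (also Kdm6b) was conditionally deleted in the first 3, and the labels name neither the driver of the deletion nor the age or number of animals. The series asks how the mark compares between these genotypes.

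BMPs are secreted dimers of the TGF-beta superfamily that bind paired type I and type II receptor kinases and signal through Smad proteins. In cartilage they drive the condensation of precursors into chondrocytes and the proliferation and maturation of cells in the growth plate. The antagonists bind ligands outside the cell and keep them from their receptors, which shapes where joints and bone form. Ezh2, the catalytic subunit of Polycomb repressive complex, writes H3K27me3 and the demethylases Utx and Jmjd3 erase it, and it is best known over silent developmental genes.

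Without duplicate fragments, ChIP libraries held 25655346 to 34786292 fragments and the inputs 16599532 to 24041619, and the lists held 33739 peaks in Ezh2-Cko, 49405 in Utx-cKO, 27013 in Jmjd3-Cko and 28057 in wild type. Each genotype has 1 library, so no difference between genotypes could be tested or set against a spread between replicates. For the same reason library and genotype cannot be told apart for any pair of genotypes. Library titles also differ in their prefix between genotypes except between Utx-cKO and Jmjd3-Cko. Chondrocyte markers such as Sox9 and Col2a1 had a peak in every list (8 of 8), but so had widely expressed reference genes such as Actb and Gapdh (10 of 10), a list added after the data were seen. Of the markers of other cell types, 1 of 3 osteoblast genes had a peak in every list and so had 2 of 3 endothelial genes, while blood genes with a peak were 2 of 3 in Ezh2-Cko, 3 in Utx-cKO, 2 in Jmjd3-Cko and 1 in wild type. Muscle genes with a peak were 0 of 3 in Ezh2-Cko, 1 in Utx-cKO, 0 in Jmjd3-Cko and 0 in wild type. Myod1 and Myog (muscle), Bglap and Ibsp (bone) and Cdh5 (endothelium), named after their values were seen, had no peak within 5 kb in any list. Sp7 (bone), Pecam1 and Kdr (endothelium) and Tal1 (blood), named likewise, had a peak in every list. Among all protein-coding genes 66.4% had a peak in all 4 lists. Peaks were thus present at cartilage and widely expressed genes. They were present at some genes of other lineages and missing from several, and whether antibody and label fit was not tested. A peak is no expression level and does not check the cell type, and a gene with a peak is not read here as a silent one. Which mark the peaks carry rests on the label alone.

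All 10 BMP genes had at least 1 peak in every list. Among all protein-coding genes the share with a peak was 70.6% in Ezh2-Cko, 73.5% in Utx-cKO, 68.9% in Jmjd3-Cko and 68.7% in wild type, and 66.4% had one in all 4 lists. No member therefore had a peak in one knockout and not in wild type, or the reverse. Such gains took in 3.05% of all genes for Ezh2-Cko, 5.3% for Utx-cKO and 2% for Jmjd3-Cko, and such losses 1.12%, 0.507% and 1.77% in the same order. What varied at these genes was the place, length and rank of their peaks. Bmp8a was the exception in presence: its only Ezh2-Cko peak lay inside the gene, away from the promoter, and was missing at q of 0.001 or less and with equally long lists.

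**Figure D1:**
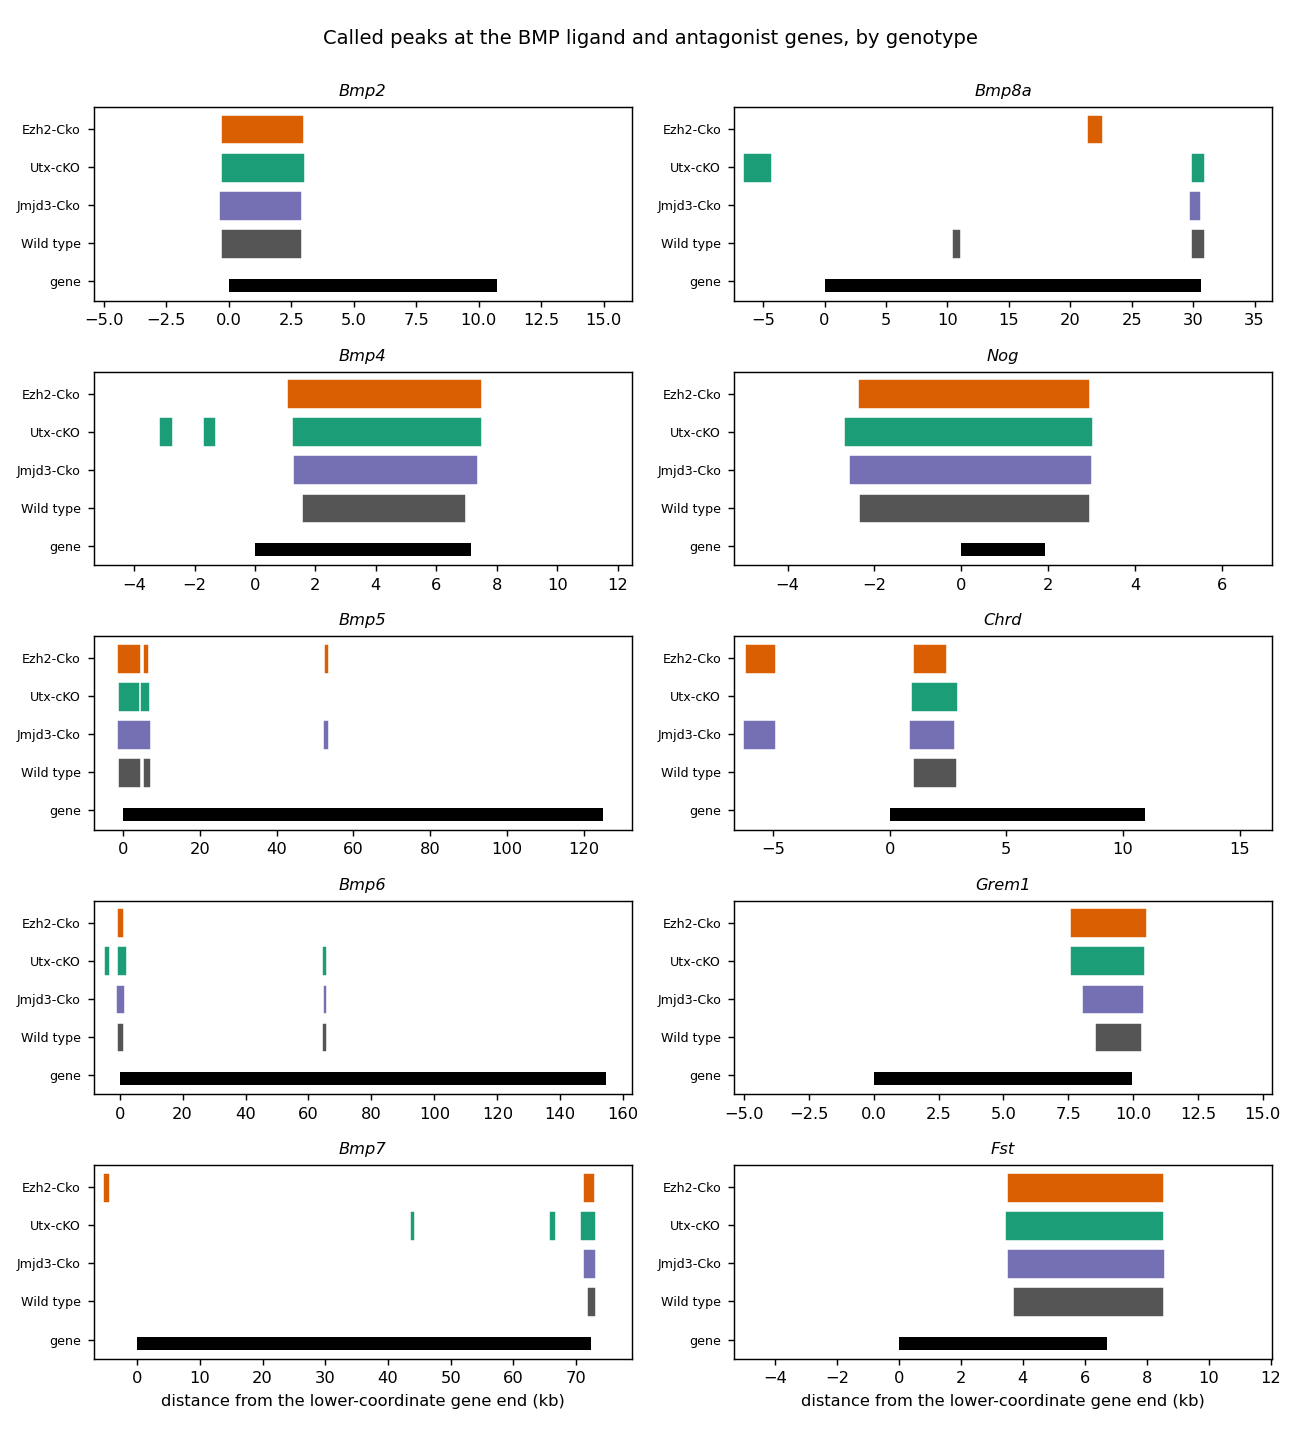
Called peaks within 5 kb of each gene, as coloured bars in a row per genotype, with the annotated gene as a black bar; the horizontal axis is the distance in kb from the gene end of lower coordinate, in genome direction and on a scale of its own for each gene. The main peak of each gene sits at the same place in all 4 rows except at Bmp8a, where the Ezh2-Cko row has no peak at the right-hand end, and the other peaks, of 308 to 2080 bp, mostly appear in some rows only.

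Promoter sequences of the 250 bases before the annotated start were taken from RefSeq (GRCm38.p6) for the 6 members found in its promoter table, Bmp4, Bmp5, Bmp6, Bmp8a, Chrd and Grem1. Bmp2, Bmp7, Nog and Fst had no entry. The 4 printed here are the promoters on which the peaks of the lists differed (Bmp4 and Bmp8a) and the members with the most and the fewest CG dinucleotides (Chrd and Bmp5). Capitals mark CG, the dinucleotide at which DNA is methylated and which is dense in CpG islands.
Bmp4 promoter, chr14:46390670-46390919 (- strand): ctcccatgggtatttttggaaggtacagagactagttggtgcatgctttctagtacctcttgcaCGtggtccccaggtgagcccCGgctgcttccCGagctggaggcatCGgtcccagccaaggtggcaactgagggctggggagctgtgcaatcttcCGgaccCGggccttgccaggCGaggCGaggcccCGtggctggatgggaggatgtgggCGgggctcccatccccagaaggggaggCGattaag
Bmp5 promoter, chr9:75775115-75775364 (+ strand): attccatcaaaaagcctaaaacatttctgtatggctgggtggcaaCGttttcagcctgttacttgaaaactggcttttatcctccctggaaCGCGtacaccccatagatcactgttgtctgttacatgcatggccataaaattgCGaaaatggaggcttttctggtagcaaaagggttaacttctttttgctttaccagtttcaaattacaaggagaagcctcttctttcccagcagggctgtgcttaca
Bmp8a promoter, chr4:123343253-123343502 (- strand): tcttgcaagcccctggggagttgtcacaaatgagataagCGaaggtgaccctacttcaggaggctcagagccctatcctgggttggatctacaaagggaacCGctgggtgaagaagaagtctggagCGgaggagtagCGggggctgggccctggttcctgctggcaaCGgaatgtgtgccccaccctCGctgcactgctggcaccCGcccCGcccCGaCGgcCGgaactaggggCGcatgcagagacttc
Chrd promoter, chr16:20732877-20733126 (+ strand): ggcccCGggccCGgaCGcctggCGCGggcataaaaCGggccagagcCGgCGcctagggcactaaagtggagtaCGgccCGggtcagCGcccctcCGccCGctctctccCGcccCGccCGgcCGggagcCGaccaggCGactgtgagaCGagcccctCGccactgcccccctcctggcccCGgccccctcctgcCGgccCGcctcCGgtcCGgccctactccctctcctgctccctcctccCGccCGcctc

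The motif searched was CG, which reads the same on both strands, and at least 1 was present in 93.4% of the 21262 promoters of protein-coding genes in the table. Its number was 28 at Chrd, 24 at Grem1, 22 at Bmp6, 12 at Bmp8a, 11 at Bmp4 and 4 at Bmp5, against a median of 10.0 over all promoters. Promoters under a peak in all 4 lists had a median of 17.0 CG, and those under a peak in none had 2.0. Bmp5 thus had a peak in every list on a promoter with few CG, and 71.0% of all promoters held at least as many. The order of CG number was not the order of peak length, since Chrd had one of the shorter peaks and Bmp5 one of the longer.

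Counting the 300 bases around the start (50 of them after it), a peak touched the promoter of 5 of these 6 members in Ezh2-Cko, 6 in Utx-cKO, 5 in Jmjd3-Cko and 5 in wild type. Over all promoters the shares were 59.4%, 62.3%, 58.6% and 57.5% in the same order. The promoter without a peak was that of Bmp8a in Ezh2-Cko and in Jmjd3-Cko, and that of Bmp4 in wild type.

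Among the ligands, Bmp2, which is needed for chondrocyte maturation and for the start of fracture repair, had 1 peak at chr2:133551893-133555077 in Ezh2-Cko, close to 1 gene end (chr2:133552159-133562896). Its peak measured 3185 bp in Ezh2-Cko, 3247 bp in Utx-cKO, 3215 bp in Jmjd3-Cko and 3111 bp in wild type. The length varied little: 3105 bp, or 92.5% of the 3357 bp under any of the 4 peaks, lay under all of them. Over all 19083 regions held by 4 lists the median of this share was 57.3%, with quartiles of 37.6% and 72.8%. A region here is what results from joining peaks of the 4 lists that overlap.

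Bmp4, a ligand of early limb and skeletal condensations, lies at chr14:46383525-46390669 on the minus strand, with its start at the higher coordinate. One long peak ran over most of the gene, with 6343 bp in Ezh2-Cko, 6187 bp in Utx-cKO, 6009 bp in Jmjd3-Cko and 5340 bp in wild type. Each knockout peak contained the wild-type peak, which is the 5340 bp shared by all 4. At the promoter the peaks reached 301 bp beyond the start for Ezh2-Cko, 289 bp for Utx-cKO and 169 bp for Jmjd3-Cko, whereas the wild-type peak ended 222 bp inside the gene. The printed Bmp4 promoter was thus touched in the 3 knockout lists and not in wild type. The lncRNA gene Gm15222 lies inside Bmp4 under the same peak. Utx-cKO had 2 further peaks beyond the other gene end, over the gene Gm15217, of 365 and 330 bp, in no other list. Their fold enrichment was 2.88 and 2.87, and neither remained with equally long lists.

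Bmp5, whose loss in the mouse gives the short ear phenotype of reduced cartilage, lies at chr9:75775365-75900316 on the plus strand. Its strongest peak covered the start and measured 5653 bp in Ezh2-Cko, 4950 bp in Utx-cKO, 8070 bp in Jmjd3-Cko and 5301 bp in wild type. The larger value in Jmjd3-Cko came from a join. A separate downstream peak lay 1159 bp further in Ezh2-Cko, 993 bp in Utx-cKO and 1344 bp in wild type, whereas Jmjd3-Cko had a single peak over both and the gap. The total covered length in the window was 6926 bp in Ezh2-Cko, 6811 bp in Utx-cKO, 8676 bp in Jmjd3-Cko and 6461 bp in wild type. A short peak inside the gene, between 52406 and 53023 bp from the start, was called in Ezh2-Cko (371 bp) and Jmjd3-Cko (606 bp) and not in the other two.

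Bmp6, a ligand of hypertrophic chondrocytes that also sets hepcidin in the liver, lies at chr13:38345716-38500314 on the plus strand, and its main peak covered the start. The peak had 1415 bp in Ezh2-Cko, 2213 bp in Utx-cKO, 1645 bp in Jmjd3-Cko and 1471 bp in wild type. Its upstream edge lay 659, 656, 700 and 625 bp before the start in the same order. The downstream edge lay 755, 1556, 944 and 845 bp after the start in the same order. The lists thus had nearly the same upstream edge, and Utx-cKO reached furthest on the side of the gene body. A further reach of any size was common in that list, over 11714 start sites under a peak in both lists. There Utx-cKO peaks went further than wild-type ones downstream at 75.1% and upstream at 75.3%. The downstream shares were 56.3% for Ezh2-Cko and 52.1% for Jmjd3-Cko. In Utx-cKO the median shift was 174 bp downstream and 98 bp upstream, against 711 and 31 bp at Bmp6. How often a downstream shift was as large as that at Bmp6 was not counted. A peak some 65 kb into the gene was called in Utx-cKO (533 bp), Jmjd3-Cko (426 bp) and wild type (441 bp) and was not in the Ezh2-Cko list. Utx-cKO alone had an 860 bp peak that ended 3736 bp before the start, over the gene Gm47990, with fold enrichment 2.42.

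Bmp7, a ligand of kidney, eye and skeletal patterning, lies at chr2:172868012-172940321, and its strongest peak covered the gene end of higher coordinate. This peak measured 1496 bp in Ezh2-Cko, 1948 bp in Utx-cKO, 1524 bp in Jmjd3-Cko and 887 bp in wild type. The edge outside the gene lay 395, 482, 484 and 473 bp beyond the gene end in that order. The difference in length lay on the gene-body side, where the knockout peaks also reached the lncRNA gene Gm40010 that lies inside Bmp7, and the wild-type peak did not. Further short peaks were present in Utx-cKO (308 and 632 bp, inside the gene) and in Ezh2-Cko (666 bp, 4636 bp beyond the other gene end and over the lncRNA genes Gm36254 and 1700055K11Rik).

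Bmp8a, a ligand known from the male germ line, lies at chr4:123312645-123343252 on the minus strand, with its start at the higher coordinate. A peak at the promoter end measured 912 bp in Utx-cKO, 764 bp in Jmjd3-Cko and 829 bp in wild type, and none was called there in Ezh2-Cko. The peak passed the start by 178 bp in Utx-cKO and 154 bp in wild type and ended 99 bp inside the gene in Jmjd3-Cko. In Ezh2-Cko the gene had only a peak of 1079 bp in its interior, with the authors' fold enrichment of 2.30, rank 33063 of the 33739 peaks. In wild type a second peak of 521 bp lay over Oxct2a, a testis gene within Bmp8a, and had no counterpart in the knockouts. A Utx-cKO peak of 2080 bp came within 4468 bp of the other gene end. The fold enrichment of the peaks at Bmp8a ran from 2.30 to 3.37, where the medians of the lists were 3.07 in Ezh2-Cko, 3.02 in Utx-cKO, 3.83 in Jmjd3-Cko and 3.37 in wild type, and the part of depth in their presence was not tested.

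Of the antagonists, Nog, which encodes noggin and is needed for joints to form, lies at chr11:89300638-89302559 and was covered whole in every list. The peak spanned 5270 bp in Ezh2-Cko, 5647 bp in Utx-cKO, 5517 bp in Jmjd3-Cko and 5247 bp in wild type. It extended beyond both ends of this 1922 bp gene, and 92.8% of the bases under any of the 4 peaks lay under all of them. Nog was the member with the largest share of its window under peaks, at 44.2% in Ezh2-Cko, 47.4% in Utx-cKO, 46.3% in Jmjd3-Cko and 44.0% in wild type. It is also the shortest member gene and so has the smallest window. Bmp4 had more bases under peaks in every list, at 6343, 6882, 6009 and 5340 bp in the same order.

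Fst encodes follistatin, which binds activins and some BMPs, and lies at chr13:114452262-114458989. Its peak at the gene end of higher coordinate measured 4984 bp in Ezh2-Cko, 5015 bp in Utx-cKO, 4994 bp in Jmjd3-Cko and 4778 bp in wild type. Of its bases under any peak 94.6% lay under all 4, the highest share among the members with a region common to the lists. The peak also covered part of the lncRNA gene Gm41074.

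Grem1, gremlin 1 of the limb bud feedback loop, lies at chr2:113748675-113758648 on the minus strand. Its only peak measured 2842 bp in Ezh2-Cko, 2770 bp in Utx-cKO, 2256 bp in Jmjd3-Cko and 1700 bp in wild type. The upstream edge lay 467, 398, 363 and 309 bp before the start in the same order, a spread of at most 158 bp from wild type. The downstream edge lay 2374, 2371, 1892 and 1390 bp after the start. Each knockout peak contained the wild-type peak whole, and the added length lay mostly inside the gene.

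Chrd, which encodes chordin, a binder of BMPs in the early embryo, lies at chr16:20731425-20742384 on the plus strand, and its promoter in the table starts transcription at 20733127, inside the annotated gene. The peak over that start measured 1293 bp in Ezh2-Cko, 1856 bp in Utx-cKO, 1858 bp in Jmjd3-Cko and 1736 bp in wild type. Ezh2-Cko had the shortest, through its downstream edge at 656 bp after the start, against 1133 bp in Utx-cKO, 1029 bp in Jmjd3-Cko and 1091 bp in wild type. The annotated ends of Chrd and of its neighbour Thpo, the thrombopoietin gene, overlap here, so the peak belongs to both by position. A peak over Thpo came within the 5 kb limit in Ezh2-Cko (4957 bp from Chrd) and Jmjd3-Cko (4970 bp), and just beyond it in Utx-cKO (5018 bp) and wild type (5574 bp), so that this difference is one of the limit.

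**Figure D2:**
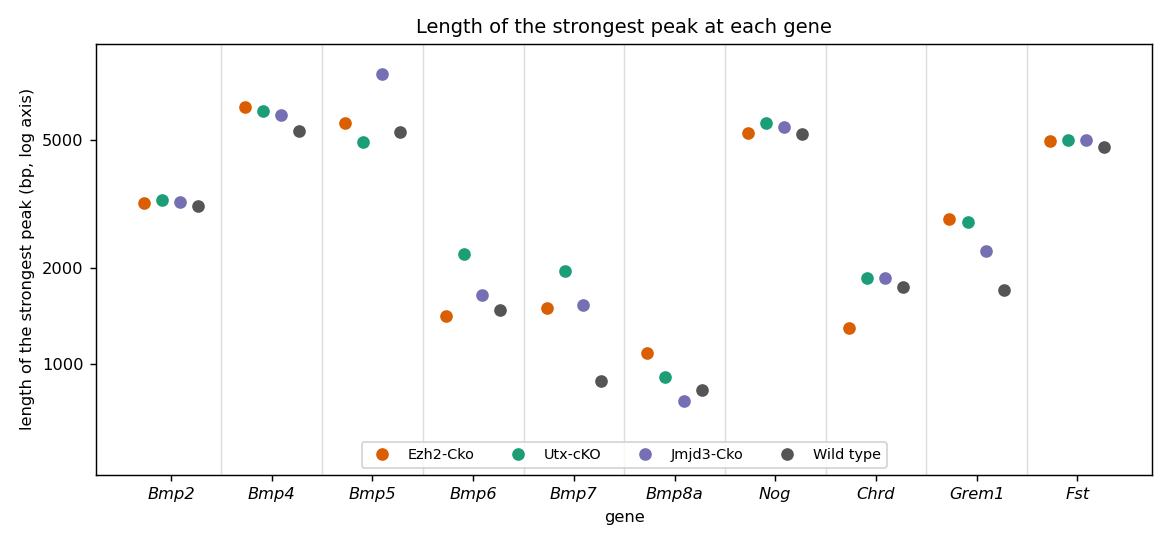
Length in bp, on a log axis, of the strongest peak at each gene, with 1 point per genotype and no replicates. Bmp4, Bmp5, Nog and Fst had peaks of 4778 to 8070 bp, Bmp2 near 3200 bp, and Bmp8a had the shortest. At Bmp8a the Ezh2-Cko point is a peak inside the gene and the others are at its promoter end. Wild type is the lowest point at Bmp2, Bmp4, Bmp7, Nog, Grem1 and Fst.

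Lengths were next set against all genes. For each knockout, the length under peaks in the gene and its 5 kb flanks (covered length) was divided by that in wild type. The median ratio over the 10 members was 1.03 for Ezh2-Cko, 1.07 for Utx-cKO and 1.09 for Jmjd3-Cko. Over all genes covered in both lists it was 1.11 (14784 genes), 1.47 (14918 genes) and 1.02 (14641 genes). In Utx-cKO the members' median was thus below that of all genes, but the size of this gap depended on the window: with 10 kb flanks the members' median was 1.49, against 1.52 for all genes.

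A ratio of at least 1.5 was seen at Bmp7 and Grem1 for Ezh2-Cko, at Bmp6, Bmp7 and Grem1 for Utx-cKO and at Bmp7 for Jmjd3-Cko. These were 2, 3 and 1 of the 10 members, against 19.7%, 48.3% and 9.48% of all covered genes. The ratio at Bmp7 was 2.098 for Ezh2-Cko, 3.26 for Utx-cKO and 1.72 for Jmjd3-Cko, and at Grem1 it was 1.67, 1.63 and 1.33. At Bmp6 it was 0.740 for Ezh2-Cko, 1.89 for Utx-cKO and 1.08 for Jmjd3-Cko. The Utx-cKO value at Bmp6 counted the 860 bp peak over Gm47990, outside the gene. With 2 kb flanks, which leave that peak out, Bmp6 had 2746 bp in Utx-cKO against 1912 bp in wild type, a ratio below 1.5. Bmp2, Nog and Fst stayed between 1.00 and 1.08 in every knockout. A ratio of at most 1/1.5 was seen at Bmp8a in Jmjd3-Cko, at 0.566, and at no other member in any knockout, while 6.98% of all covered genes had it in Jmjd3-Cko, 3.75% in Ezh2-Cko and 1.45% in Utx-cKO. The wild-type length at Bmp8a counted the 521 bp peak over Oxct2a. The peak at the promoter end alone measured 764 bp in Jmjd3-Cko and 829 bp in wild type. The 3 ratios share the wild-type library, so a low or high wild-type value moves all of them together.

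**Figure D3:**
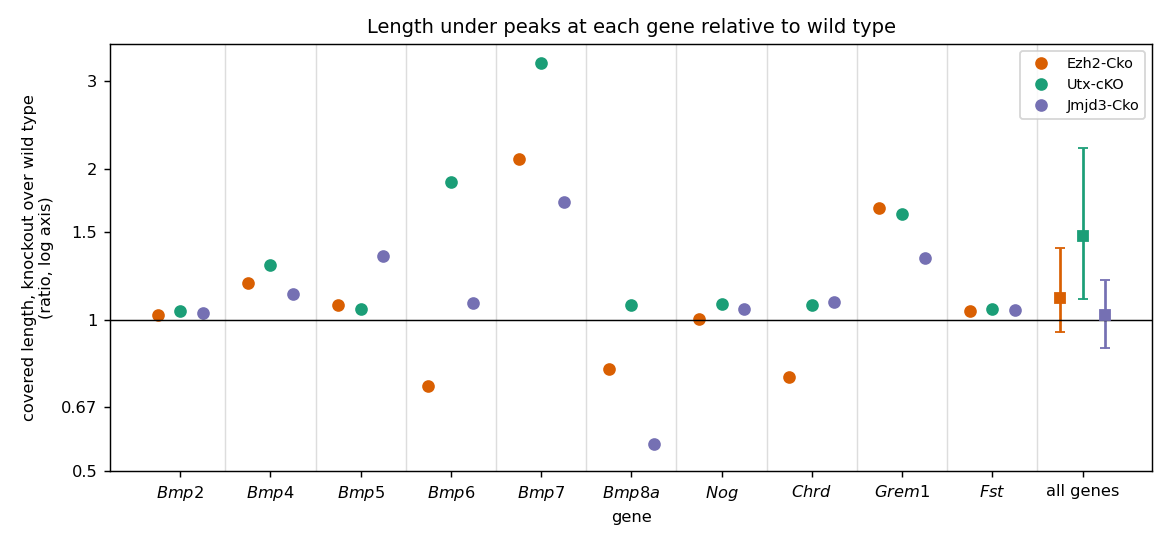
Covered length in each knockout over wild type (log axis), with 1 point per gene and knockout; squares at the right give the median of all genes covered in both lists and bars their quartiles, and the line marks a ratio of 1. Bmp7 and Grem1 lie above 1.3 in each knockout, Bmp2, Nog and Fst lie near 1, and the Utx-cKO median of all genes is 1.47.

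Ranks by the authors' fold enrichment (ChIP over local input) were taken among the 14537 genes with a peak in all 4 lists, so that each ranking had the same length, and run from 0 for the weakest to 100 for the strongest gene. The members' median percentile was 23.3 in Ezh2-Cko, 22.9 in Utx-cKO, 28.3 in Jmjd3-Cko and 18.1 in wild type, where all genes have 50 by construction. Only Chrd and Fst (in Ezh2-Cko, Utx-cKO and wild type) and Chrd and Bmp2 (in Jmjd3-Cko) ranked above 50. By the length of the widest peak over the same genes the members' median percentile was instead 69.5, 55.5, 65.3 and 56.9 in that order. Bmp4, Bmp5, Nog and Fst ranked higher by length than by fold enrichment in wild type. There their length percentiles were 94.5, 94.5, 94.2 and 92.2, and their fold enrichment percentiles 8.65, 33.6, 39.2 and 52.6. Chrd was the opposite, with length percentile 38.4 and fold enrichment percentile 84.7 in wild type. The antagonists had a higher median fold enrichment percentile than the ligands in every list: 58.8 against 18.3 in Ezh2-Cko, 50.05 against 14.0 in Utx-cKO, 41.6 against 22.1 in Jmjd3-Cko and 45.9 against 11.2 in wild type. These medians rest on 4 antagonists and 6 ligands. The antagonist Grem1, at 16.1, 18.4, 26.5 and 7.83 in that order, lay within the range of the ligands in every list.

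Some members changed place between genotypes. Bmp2 stood at percentile 37.9 for Ezh2-Cko, 30.0 for Utx-cKO and 58.1 for Jmjd3-Cko, against 22.7 in wild type. Bmp4 stood at 24.8, 27.4 and 30.1 in the knockouts in that order, against 8.65 in wild type. Bmp5 ran the other way, with 21.8, 14.8 and 21.0 against 33.6. For all ranked genes the difference from wild type lay between -24.6 and 24.8 points for the central 90% for Ezh2-Cko, between -26.5 and 26.0 for Utx-cKO and between -24.7 and 24.7 for Jmjd3-Cko. Of the members, only Bmp2 in Jmjd3-Cko, 35.4 points above wild type, lay outside these ranges. The next largest differences were at Fst in Ezh2-Cko (22.0), Bmp4 in Jmjd3-Cko (21.4) and Chrd in Utx-cKO (-20.3). Fst stood at 74.6 for Ezh2-Cko, 69.4 for Utx-cKO and 39.4 for Jmjd3-Cko, against 52.6 in wild type. Bmp8a was near the bottom in the knockouts, at 0.0688, 1.14 and 0.612, against 8.95 in wild type. These are not values of one peak: in Ezh2-Cko it was the interior peak and in the other lists the peak at the promoter end.

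**Figure D4:**
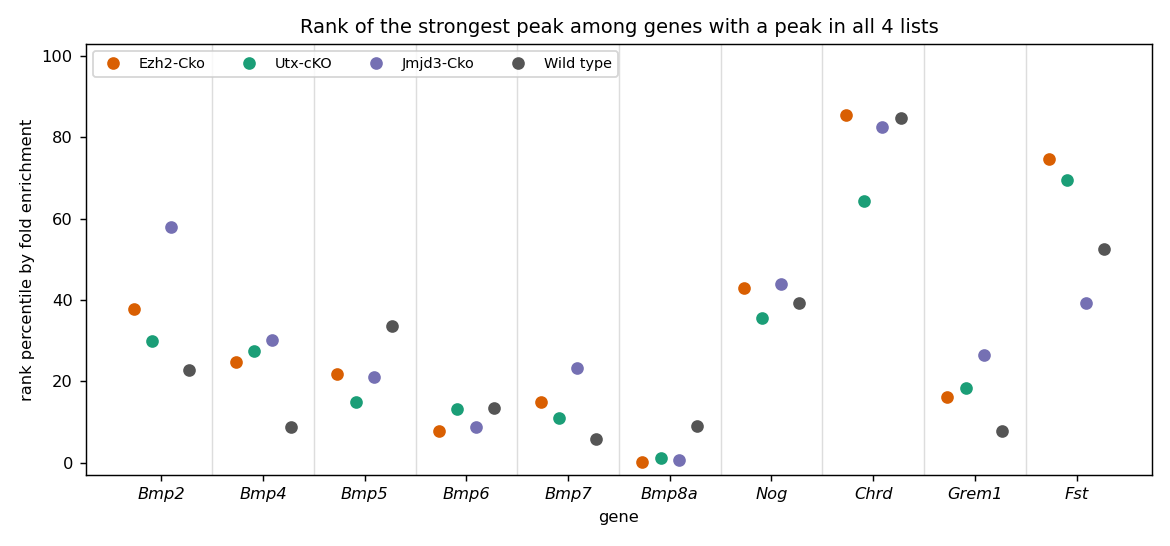
Percentile of each gene's strongest peak by fold enrichment among the 14537 genes with a peak in all 4 lists, with 1 point per genotype. Chrd is the highest point of Ezh2-Cko, Jmjd3-Cko and wild type and Fst that of Utx-cKO, Bmp8a is lowest in each knockout, and Bmp2 in Jmjd3-Cko is the point farthest above its own wild-type value. At Bmp8a the Ezh2-Cko point is a peak inside the gene and the others are at its promoter end.

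The peaks of the members formed 22 regions, of which 10, counting the one over Thpo, were held by all 4 lists (45.5%, against 32.8% of the 58187 regions of the genome), 2 by 3 lists (9.09%, against 8.84%), 1 by 2 lists (4.55%, against 14.5%) and 9 by a single list (40.9%, against 43.9%). Of those 9, Utx-cKO alone held 6, Ezh2-Cko alone 2 and wild type alone 1, and Jmjd3-Cko alone held none. In the genome these shares were 30.6%, 6.48%, 3.95% and 2.88%. The Utx-cKO list is also the longest, and with equally long lists single-list regions at the members numbered 2. Peaks at a member other than its strongest were 4 in Ezh2-Cko, 8 in Utx-cKO, 3 in Jmjd3-Cko and 3 in wild type, with fold enrichment from 2.42 to 3.40.

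Most other genes of the pathway also had peaks. All 10 receptor and co-receptor genes, all 6 Smad genes and all 8 target genes examined had a peak in every list, beside 66.4% of all protein-coding genes. For the counts by list that follow, the shares of all genes were 70.6% in Ezh2-Cko, 73.5% in Utx-cKO, 68.9% in Jmjd3-Cko and 68.7% in wild type. The list of 9 other BMP and GDF ligand genes holds Bmp1, which encodes a protease and not a ligand. Of these 9, 6 had a peak in each knockout and 5 in wild type. The gene added was Gdf2, a ligand of endothelial cells (BMP9), with covered length 243 bp for Ezh2-Cko, 245 bp for Utx-cKO and 284 bp for Jmjd3-Cko. Over all genes such gains took in 3.05%, 5.3% and 2% in the same order. Bmp8b, Bmp10 and Bmp15, named after their values were seen, had no peak within 5 kb in any list. Of 12 other antagonist genes, 11 had a peak in Ezh2-Cko, 11 in Utx-cKO, 10 in Jmjd3-Cko and 11 in wild type.

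Covered lengths are given next for the genes with the longest in wild type in each of these lists, within each gene and not between genes, since their gene lengths differ. Smad6 and Smad7 encode inhibitory Smads that BMP signalling itself induces. Smad6 had 21196 bp for Ezh2-Cko, 46227 bp for Utx-cKO and 20289 bp for Jmjd3-Cko, against 12925 bp in wild type. Smad7 had 16244, 21898 and 16647 bp in the same knockouts, against 14014 bp. The type I receptor gene Bmpr1a had 12572, 11093 and 13788 bp, against 13805 bp, and the co-receptor gene Rgma 17036, 25080 and 8416 bp, against 11764 bp. The target genes Id2 and Id3, which encode inhibitors of helix-loop-helix factors, had 8567 and 7094 bp in Ezh2-Cko, 8664 and 9817 bp in Utx-cKO, 8611 and 8805 bp in Jmjd3-Cko, and 7664 and 8500 bp in wild type. In the list of other ligands, Bmp1, which encodes the protease that cleaves chordin and not a ligand, had 4216, 10083 and 2364 bp, against 3683 bp. The ligand gene Bmp3 had 2323, 1286 and 1163 bp, against 2962 bp. Among antagonists, Fstl1 had 10493, 13887 and 5527 bp, against 4662 bp, and Twsg1 had 2085, 3852 and 4124 bp, against 2984 bp. The median ratio to wild type was 1.11 for Ezh2-Cko, 2.14 for Utx-cKO and 0.938 for Jmjd3-Cko over the list of other ligands (5 genes covered in both lists, Bmp1 among them). It was 1.30, 2.94 and 1.17 over the other antagonists (11, 11 and 10 genes). It was 1.16, 1.70 and 0.991 over receptors, 1.16, 1.51 and 1.23 over Smads and 1.27, 1.37 and 1.20 over targets in the same order of knockouts, beside 1.11, 1.47 and 1.02 over all genes. By fold enrichment the Smad genes ranked high. Their median percentile was 88.6 in Ezh2-Cko, 86.8 in Utx-cKO, 88.8 in Jmjd3-Cko and 91.1 in wild type. Receptors had 72.5, 64.4, 73.4 and 74.4 in that order, and targets 45.4, 43.4, 37.3 and 42.7. The list of other ligands (5 genes ranked) had 22.3, 17.8, 26.1 and 12.03. Bmp1, not a ligand, was the highest of these genes, at 65.2, 72.9, 82.1 and 56.6. The other antagonists (10 genes ranked) had 27.03, 20.1, 30.8 and 31.8. Low ranks were thus not particular to the 10 members, whose medians were 23.3, 22.9, 28.3 and 18.1.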

How the data were processed

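H3K27me3 ChIP-seq of mouse chondrocytes was analysed from the authors' 4 deposited peak lists, 1 per genotype. MACS 2.1.2 was run by the authors in its broad, paired-end mode with the genotype's own input as control, per the file headers. The q threshold was 0.05, 1 fragment was kept per position, and the larger library of each pair was scaled down. No libraries were pooled. Bowtie2, HOMER 4.10 and deepTools 2.4.1 are among the other tools named, per the submitters' processing notes. The deposited lists give each peak's length, its pileup as a coverage signal (not compared between libraries), its −log10 p and −log10 q, and its fold enrichment, a ratio to the local input background. Depth alone can bring a peak into a list or drop it. Shares count genes of the table and carry no interval.

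Genes and promoters came from RefSeq (GRCm38.p6). The build of the files is not given in the sources used here; wild-type peaks touched 57.5% of promoter windows in place and 4.14% and 4.02% when windows were moved by 20 kb down or up, so GRCm38 coordinates were used. The members, lists and naming rule were chosen with earlier results of these data known. The naming rule took all 10 members and, from each pathway list, the genes with a peak in some lists but not all and the 2 with the longest covered length in wild type. One gene that the rule took is not reported here. Overlap counted from 1 bp. Alternatives were flanks of 0, 2 and 10 kb, q of 0.001 or less, fold enrichment of 4 or more, the 27013 strongest peaks of each list, merging within 3 kb, and 50% of the peak inside the window. Gene marking was tested on simulated peaks, which recovered the 200 genes made to carry peaks, of 21883 searched. Python 3.11.15, numpy 2.4.6, pandas 2.3.3 and matplotlib 3.10.9 were used.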

Additional observations from a re-analysis of the deposited data

How the results depend on the processing

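No median ratio crossed 1 under any alternative. Counts are given here where they moved by more than 1.5 times, and medians where they left the quartiles of the members' own values; within those quartiles, the largest shift of a median ratio was that in Utx-cKO with 10 kb flanks, to 1.49 from 1.07. With fold enrichment of 4 or more, which is not equal between lists, members with a peak numbered 5 in wild type, beside 56.6% of all genes. Members with a peak in the knockout alone then numbered 3 for Ezh2-Cko, 4 for Utx-cKO and 3 for Jmjd3-Cko, beside 3.71%, 7.11% and 4.62% of all genes. At that cut, those with covered length at least 1.5 times wild type were 0 in Ezh2-Cko and 0 in Utx-cKO, beside 10% and 29.2% of all covered genes. Those at most 1/1.5 in Jmjd3-Cko were 0, beside 3.92%. The median ratio in Utx-cKO was 1.05, beside 1.21 over all genes, and 9 regions remained, 5 in all 4 lists and 1 in a single list. At q of 0.001 or less, 1 member (Bmp8a) had a wild-type peak and none in Ezh2-Cko, and 1 (Bmp8a) none in Jmjd3-Cko, beside 1.13% and 1.07% of all genes. There, 2 members had at least 1.5 times the wild-type covered length in Jmjd3-Cko and 0 at most 1/1.5, beside 9.07% and 5.08% of all covered genes. At that q 13 regions were left, 2 in a single list. With equally long lists 1 member (Bmp8a) had a wild-type peak and none in Ezh2-Cko, beside 1.63% of all genes, and 2 regions were in a single list. With 10 kb flanks the members at 1.5 times or more were 2 in Jmjd3-Cko and 5 in Utx-cKO, beside 8.98% and 50.9% of all covered genes. With 2 kb flanks 5 regions were in a single list. Over the gene body alone 4 were, and 1 member was at most 1/1.5 of wild type in Ezh2-Cko and 1 in Utx-cKO, beside 5.65% and 2.36% of all covered genes. The cause of these differences was not tested. No paired analysis was possible because each genotype has 1 ChIP library, and for the same reason no replicate could be left out.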
